A study of Mus musculus with 4 samples.

Results

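Genes encoding the receptors for glutamate and GABA, the main excitatory and inhibitory transmitters of the brain, were examined in sorted tumour cells of PDGF-B-driven mouse gliomas. The list held 36 genes chosen by family: the subunits of the AMPA, kainate and NMDA receptors, the metabotropic glutamate receptors, and the GABA-A and GABA-B receptors. Each gene was read from the probe set annotated to it alone, the one with the highest mean over the 4 arrays where a gene had several. On this rule 35 of the 36 were measured, among 19937 genes in all, and the expression of Grin1 was not analysed here. Other subunit genes of these families were not used here.

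Late-onset high-grade tumours were set against early-onset low-grade ones. The late-onset group held 2 samples, each from 1 tumour, here called tumours 1 and 2. The early-onset group held 2 samples, each pooled from 2 tumours, here called pools 1 and 2. All animals were C57/Bl6 mice in which a retrovirus carrying PDGF-B and EGFP had been injected at embryonic day 14, and all samples were EGFP-positive glioma cells sorted by flow cytometry. The series has no normal brain sample, and the age at dissection and the viral promoter are not given in the sources used here. Values are log2 probe set values from Affymetrix arrays, fold changes are late-onset minus early-onset on the log2 scale, and a gene is said to have fallen or risen when its Benjamini-Hochberg adjusted p, over all genes in the limma fit, was below 0.05.

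Ionotropic glutamate receptors and GABA-A receptors are ligand-gated channels built from several subunits, so the mix of subunits sets ion permeability and kinetics. Metabotropic glutamate receptors and GABA-B receptors act through G proteins. Glial progenitors receive synapses from neurons and express many of these genes, and AMPA receptors are known to carry neuron-to-glioma synaptic currents in high-grade gliomas.

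The receptor genes were lower in the late-onset tumours in most cases, and none rose. Of 35 measured genes, 17 (48.6%) fell and 0 rose, against 8.12% of all genes that fell and 6.59% that rose. By at least 2-fold 10 fell, and by at least 4-fold 4 fell: Gria1, Gabbr2, Grm3 and Grin3a. Every class had members that fell, with 2 of 4 AMPA, 3 of 5 kainate, 3 of 6 NMDA, 2 of 7 metabotropic glutamate, 5 of 11 GABA-A and 2 of 2 GABA-B genes. The median log2 fold change was -0.57 over the 35 genes and -0.01 over all genes tested. Both tumours lay below both pools in 28 genes (80%), against 30.4% of all genes, and both tumours lay above both pools in 2 genes, against 28.5%. After subtraction of each array's median, which shifted the log2 fold change of all genes up by 0.16, 15 receptor genes fell and 1, Gabre, rose. Gabre was dim, with a mean below the lower quartile of all genes. When pool 1 was left out 7 fell, and when pool 2 was left out 6 fell; the remaining pool then has no replicate and is taken to vary as the late-onset samples do.

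**Figure D1:**
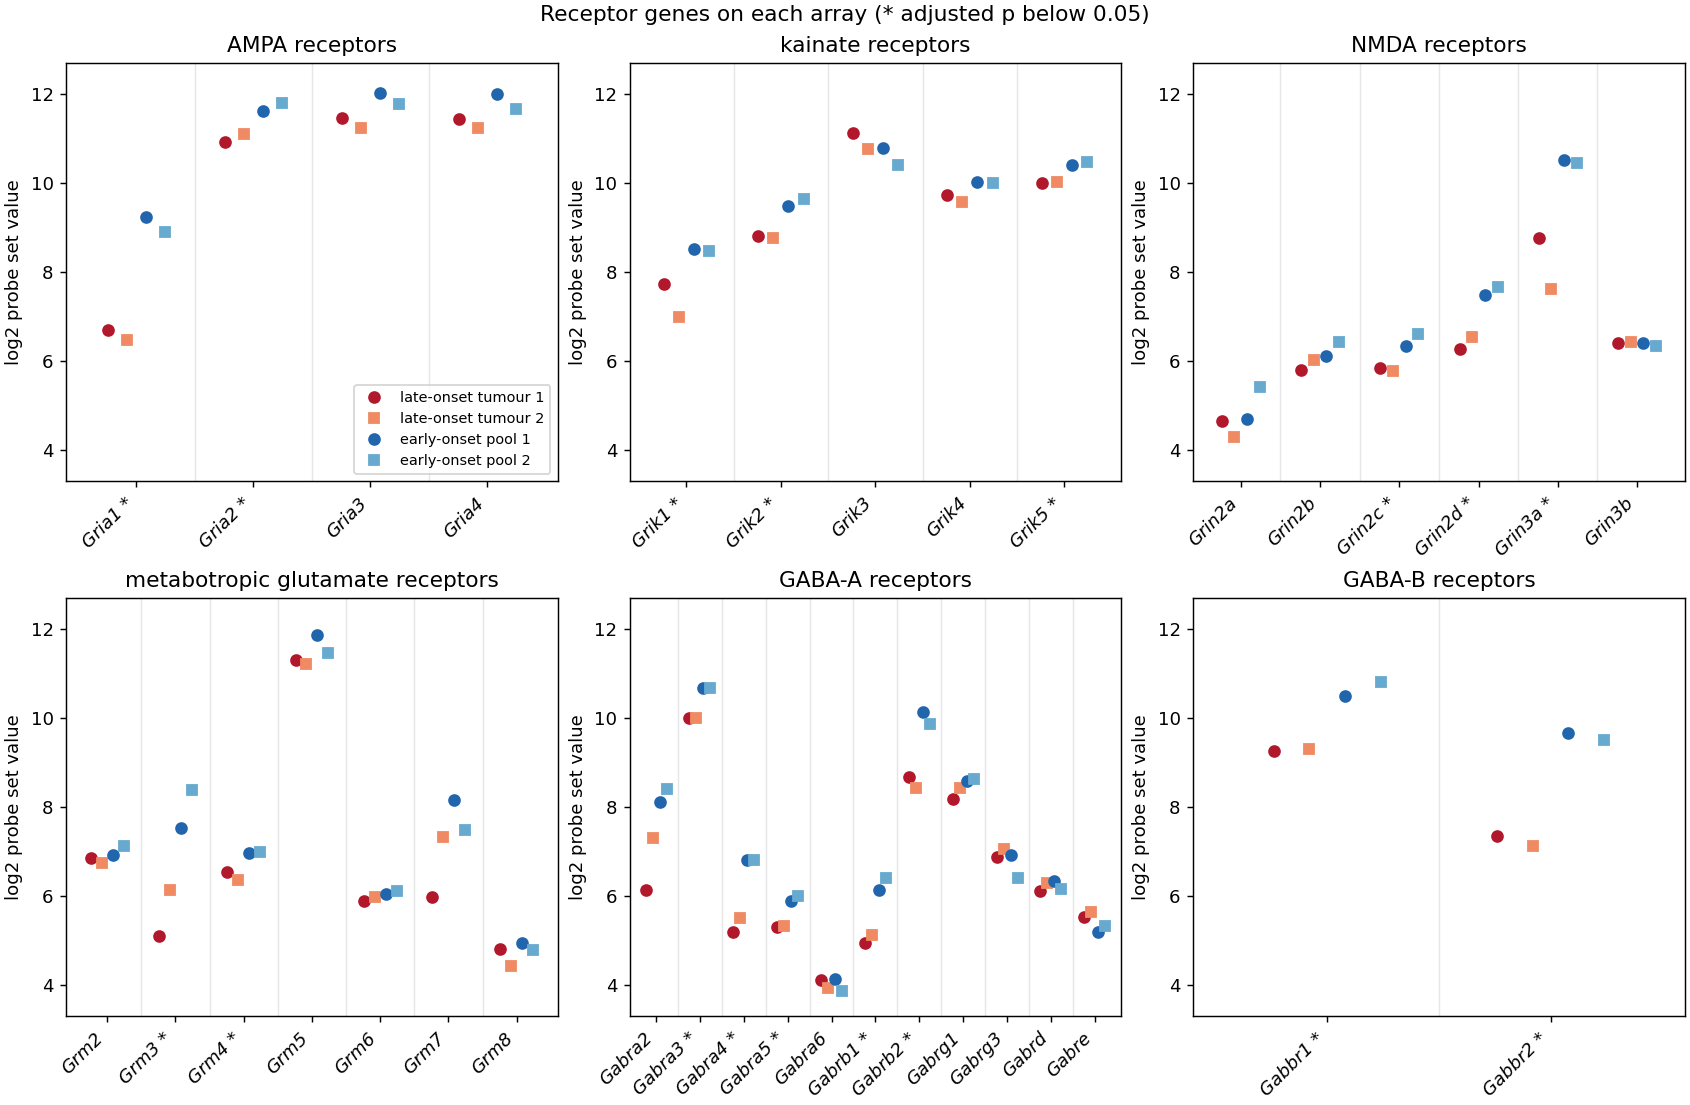
Log2 probe set values of the 35 measured receptor genes on each array, by receptor class, with late-onset tumours in red and orange and early-onset pools in blue. Asterisks mark the 17 genes with an adjusted p below 0.05, and levels of different genes are not comparable on this scale. Gria1, Gabbr2, Grm3 and Grin3a show the widest gaps between tumours and pools.

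These cells also differed in transcripts of other cell types. The marker counts below stand beside 8.12% of all genes that fell and 6.59% that rose. Of 19 measured microglia and macrophage markers, 18 fell, and their summed linear value was 2356 and 3609 in the tumours, against 47280 and 40550 in the pools. Of 20 neuron markers 8 fell and 1 rose: the calcium sensor gene Vsnl1 stood at -2.54, and the neuronal tubulin gene Tubb3 at 1.86. Of 15 astrocyte markers 8 fell, led by the bicarbonate transporter gene Slc4a4 (-2.28). The summed linear value of the neuron list was 16650 and 15530 in the tumours, against 18210 and 18280 in the pools. That of the astrocyte list was 12380 and 13480, against 18260 and 20590. Such a sum weighs the brightest genes most. The median log2 fold change was -0.58 over the neuron list and -0.95 over the astrocyte list, against -0.57 over the receptor genes. Both tumours lay below both pools in 14 of 20 neuron and 12 of 15 astrocyte markers, against 30.4% of all genes. They lay above both pools in 1 and 2, against 28.5%. The number of neuron markers that fell was 4 without tumour 1, 3 without pool 1 and 1 without pool 2. The number of astrocyte markers that fell was 5, 4 and 2 in the same settings. In bulk cells fewer cells of a type and less RNA per cell cannot be told apart, and the part of these cell types in the receptor results was not tested. RMA values have no zero, so no marker could be read as absent. Genes of the oligodendrocyte progenitor, the cell type that PDGF-driven gliomas are known to resemble, had a list median of 12.04 and 11.91 in the tumours, against 12.13 and 12.20 in the pools. The summed linear value of that list was 59590 and 56520 in the tumours, against 74210 and 78260 in the pools. Of its 14 measured genes 13 had a negative fold change, with a median of -0.40. In 10 of the 14 both tumours lay below both pools, against 30.4% of all genes. The test called 3 of them lower, C1ql1 (-0.84), Cspg5 (-0.74) and the PDGF receptor gene Pdgfra (-0.45), and the lineage factor genes Olig2 (-0.19, adjusted p 0.256) and Sox10 (0.00, adjusted p 0.997) were not called. Of 9 oligodendrocyte markers 2 fell, led by the myelin gene Mobp (-2.62), and 2 rose, led by the tight junction gene Cldn11 (2.07). The endothelial and pericyte list had 1 of 12 lower, the pericyte gene Rgs5 (-0.56), and the T and NK cell list 1 of 8, Cd4 (-0.44). Both counts lie near the 8.12% of all genes that fell. The calls of C1ql1, Cspg5, Pdgfra, Mobp, Rgs5 and Cd4 were lost without pool 1 (adjusted p 0.0552 to 0.177) and without pool 2 (0.0725 to 0.229). Those of Pdgfra, Rgs5 and Cd4 were also lost without tumour 1 (0.0795 to 0.0949), without tumour 2 (0.0533 to 0.105), with the replicate number as a block (0.078 to 0.0863) and after subtraction of array medians (0.066 to 0.106). With the block Cspg5 also lost its call (0.0523), as did Mobp with robust moderation (0.0504), Pdgfra (0.0728) and Cd4 (0.0621) after quantile normalization, and Cd4 after cyclic loess (0.0562). The number of oligodendrocyte progenitor genes that fell was 0 without pool 1 or pool 2, 8 with limma-trend, 7 after cyclic loess, 6 with genes below the median left out and 5 with array weights.

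**Figure D2:**
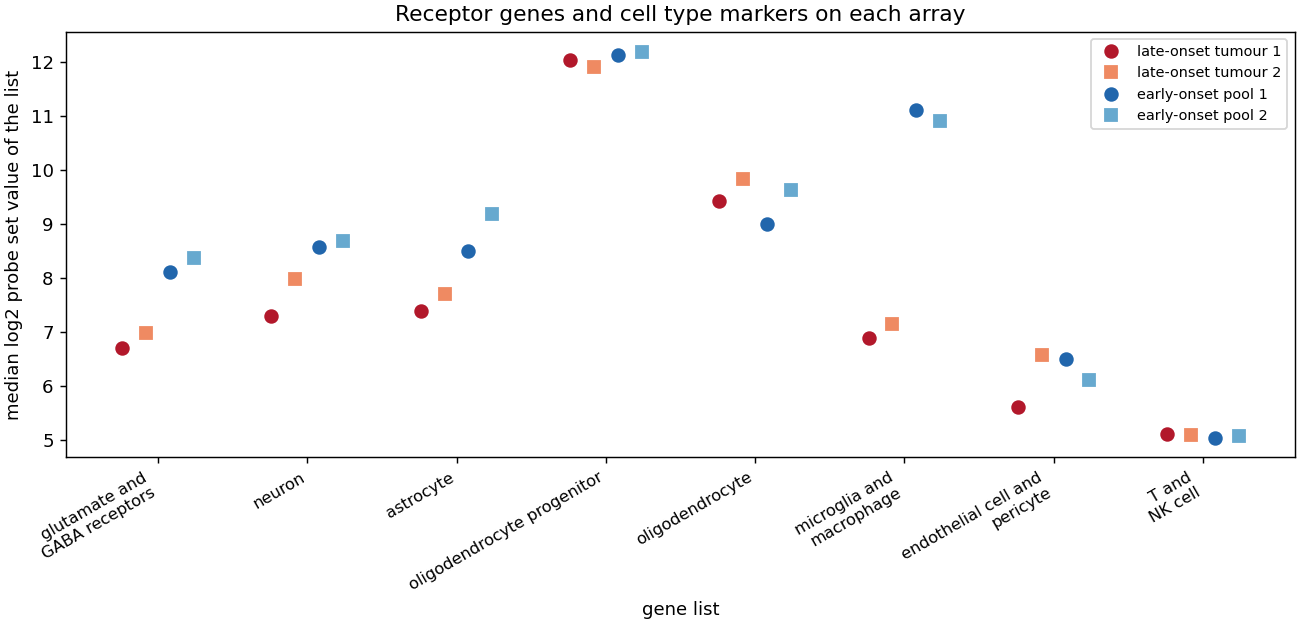
Median log2 probe set value of the 35 receptor genes and of 7 lists of cell type markers on each array. The receptor, neuron, astrocyte, oligodendrocyte progenitor and microglia medians are lower in both tumours than in both pools, by the widest gap for microglia and macrophages.

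Promoter sequences are shown for 4 members, to set genes that fell beside one that did not. The sequences come from RefSeq on GRCm38.p6, which held windows of 250 bases before to 50 after the start for 27 of the 36 genes. Gria2 and Gabrb1, which both fell, were the 2 of 27 genes (7.41%) with a match to the NRF1 motif (a pair of GCGC half-sites with AN or NT between them). Over 27025 genes with a window the share was 5.19%. These shares are close, and a link of the motif to the fall was not tested. NRF1 is a transcription factor described in neurons as a regulator of glutamate receptor genes. Gabbr2, which fell by over 4-fold, and the kainate receptor gene Grik3, which was not called, both held the GC box GGGCGG, as did 16 of the 27 genes (59.3%), against 38.2% of all. The GC box was found in 7 of 13 genes that fell and in 8 of 13 that were not called. The remaining gene with a window was Grin1, whose window held a GC box and whose expression was not analysed here. The cyclic AMP response element TGACGTCA was found in 0 of 27 genes (2.03% of all), and the TATA box TATAAA in 3 (15.7% of all). Capitals mark the NRF1 match in the first pair and the GC boxes on either strand in the second pair, and the windows of the first pair held no GC box. A match is a run of letters and not a measured binding site.
Gria2 (chr3:80802786-80803085, minus strand): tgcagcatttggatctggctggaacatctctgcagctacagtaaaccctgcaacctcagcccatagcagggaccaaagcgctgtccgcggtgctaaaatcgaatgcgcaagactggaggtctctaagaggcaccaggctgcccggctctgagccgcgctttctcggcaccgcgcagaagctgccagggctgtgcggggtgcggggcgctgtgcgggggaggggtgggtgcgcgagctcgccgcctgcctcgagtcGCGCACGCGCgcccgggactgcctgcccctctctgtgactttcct
Gabrb1 (chr5:71699682-71699981, plus strand): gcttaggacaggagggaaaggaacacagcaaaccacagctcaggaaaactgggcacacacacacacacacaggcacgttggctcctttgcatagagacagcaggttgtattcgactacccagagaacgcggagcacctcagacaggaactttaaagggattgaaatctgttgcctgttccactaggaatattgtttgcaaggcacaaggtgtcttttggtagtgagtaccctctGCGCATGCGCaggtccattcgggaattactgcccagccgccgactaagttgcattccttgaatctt
Gabbr2 (chr4:46991665-46991964, minus strand): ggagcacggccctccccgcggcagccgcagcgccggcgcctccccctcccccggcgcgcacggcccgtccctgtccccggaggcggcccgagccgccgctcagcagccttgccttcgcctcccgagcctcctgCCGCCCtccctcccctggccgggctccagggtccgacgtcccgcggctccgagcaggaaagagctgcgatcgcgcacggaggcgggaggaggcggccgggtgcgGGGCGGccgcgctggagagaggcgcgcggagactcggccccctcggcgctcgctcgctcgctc
Grik3 (chr4:125490446-125490745, plus strand): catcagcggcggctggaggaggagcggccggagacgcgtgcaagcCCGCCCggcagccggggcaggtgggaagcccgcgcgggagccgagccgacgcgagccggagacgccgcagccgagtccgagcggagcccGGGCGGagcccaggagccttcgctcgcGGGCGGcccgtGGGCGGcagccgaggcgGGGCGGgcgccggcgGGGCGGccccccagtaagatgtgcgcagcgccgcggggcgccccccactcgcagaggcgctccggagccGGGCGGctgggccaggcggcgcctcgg
The Gabbr2 window held 46 CpG pairs and 2 GC boxes, and the Grik3 window 50 CpG pairs and 7 GC boxes. The Gabrb1 window shown is the downstream of its pair of annotated starts, and its upstream window held 0 matches to the NRF1 motif.

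Of the AMPA receptor genes, which encode the subunits of the fast excitatory channel, Gria1 and Gria2 fell, and Gria3 and Gria4 did not pass. Gria1 stood at 6.71 and 6.48 in the tumours, against 9.24 and 8.91 in the pools. That is a 5.59-fold lower level in the late-onset cells (log2 fold change -2.48, SE 0.16, adjusted p 0.00229), with the gap between groups far wider than the gap within either. Gria2, whose edited product makes the channel impermeable to calcium, stood at 10.92 and 11.11 in the tumours, against 11.63 and 11.81 in the pools (-0.70, SE 0.12, adjusted p 0.0232). Gria3 stood at 11.46 and 11.24 in the tumours and at 12.03 and 11.79 in the pools (-0.56, adjusted p 0.0566). Gria4 stood at 11.44 and 11.24 in the tumours and at 12.02 and 11.67 in the pools (-0.50, adjusted p 0.0954). In all of these the groups did not overlap, and the 95% intervals of Gria3 (-0.91 to -0.21) and Gria4 (-0.90 to -0.11) held no rise. Gria3 passed in 4 of 15 other settings, with limma-trend, quantile normalization, cyclic loess or genes below the median left out (adjusted p 0.0367 to 0.0415). The Gria1 call held in each of the 15 settings. The Gria2 call was lost without tumour 1 (adjusted p 0.0574), pool 1 (0.0773) or pool 2 (0.141).

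Kainate receptor genes split between 3 that fell and 2 that did not pass. Grik1 stood at 7.73 and 6.99 in the tumours, against 8.53 and 8.48 in the pools (-1.15, SE 0.25, adjusted p 0.0389). Its tumours lay further apart than its pools. Each pool held 2 tumours, so the spreads of the groups are not like for like. Grik2, which encodes a pore-forming kainate subunit, stood at 8.82 and 8.77 in the tumours, against 9.49 and 9.65 in the pools (-0.77, SE 0.11, adjusted p 0.0123). Grik5 encodes a high-affinity subunit that needs a partner to form a channel. It stood at 10.00 and 10.04 in the tumours, against 10.40 and 10.49 in the pools (-0.43, adjusted p 0.0466). Grik4, the other high-affinity subunit gene, stood at 9.74 and 9.58 in the tumours and at 10.03 and 10.00 in the pools (-0.36, adjusted p 0.0901). Grik3 alone in this class had a positive fold change, with 11.13 and 10.77 in the tumours and 10.80 and 10.41 in the pools (0.35, 95% interval -0.13 to 0.83, adjusted p 0.295), and its groups overlapped. Calls in this class were lost without pool 1 or pool 2 for Grik1 (adjusted p 0.161 and 0.165), Grik2 (0.0544 and 0.0852) and Grik5 (0.164 and 0.247). The Grik5 call was also lost without tumour 1 (0.105) or tumour 2 (0.0983), and after subtraction of array medians both Grik5 (-0.27, adjusted p 0.117) and Grik1 (adjusted p 0.0514) lost theirs. With the replicate number as a block they stood at 0.0882 and 0.0541.

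Among NMDA receptor genes the largest change was in Grin3a, a subunit gene active in early postnatal brain whose product lowers calcium permeability. Grin3a stood at 8.77 and 7.62 in the tumours, against 10.51 and 10.45 in the pools. The log2 fold change was -2.29 (SE 0.37, adjusted p 0.018), and the tumours differed from each other by 1.15, against 0.06 between the pools. Each pool held 2 tumours, so pooling and group cannot be told apart in these spreads. Grin2d, which encodes a subunit of slow kinetics expressed mainly in development, stood at 6.27 and 6.56 in the tumours, against 7.49 and 7.66 in the pools (-1.16, SE 0.14, adjusted p 0.00881). Grin2c, known from cerebellum and glia, stood at 5.85 and 5.79 in the tumours, against 6.34 and 6.61 in the pools (-0.65, adjusted p 0.0304). The main forebrain subunit genes did not pass: Grin2b stood at -0.37 (adjusted p 0.186) and Grin2a at -0.57 (adjusted p 0.219). Grin2a was at 4.65 and 4.31 in the tumours and at 4.69 and 5.41 in the pools, so the pools lay further apart than the nearest tumour and pool. The Grin2a mean lay below the lower quartile of all genes, where a fold change can be understated. Grin3b, a subunit gene known from motor neurons, did not pass, with 6.42 and 6.43 in the tumours and 6.42 and 6.34 in the pools (0.04, 95% interval -0.20 to 0.29). The Grin3a call was lost without pool 1 (adjusted p 0.0894) or pool 2 (0.0942), and that of Grin2d without pool 2 (0.0597). The Grin2c call was lost without tumour 1 (0.0612), tumour 2 (0.0845), pool 1 (0.0632) or pool 2 (0.155), and with the replicate number as a block (0.0671).

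Metabotropic glutamate receptor genes were lower for Grm3 and Grm4. Grm3, which encodes a Gi-coupled receptor found on astrocytes as well as neurons, stood at 5.11 and 6.14 in the tumours, against 7.54 and 8.38 in the pools. It was 5.06-fold lower in late-onset cells (-2.34, SE 0.42, adjusted p 0.0242), with samples spread widely in both groups. Grm4, a presynaptic group III receptor gene, stood at 6.55 and 6.36 in the tumours, against 6.98 and 6.99 in the pools (-0.53, adjusted p 0.0363). Grm7, of the same receptor group, stood at 5.99 and 7.32 in the tumours and at 8.17 and 7.48 in the pools. Its fold change was -1.17 (95% interval -2.37 to 0.03, adjusted p 0.174), and the tumours lay far apart: it stood at -0.50 without tumour 1 (adjusted p 0.338) and passed without tumour 2 (-1.84, adjusted p 0.0291). Grm5, the Gq-coupled receptor gene of the list, stood at 11.30 and 11.23 in the tumours and at 11.86 and 11.46 in the pools (-0.39, adjusted p 0.172). Grm2, Grm6 and Grm8 lay between -0.25 and -0.15, with adjusted p from 0.302 to 0.391. The Grm3 call was lost without pool 1 (adjusted p 0.0511) or pool 2 (0.111). Quantile normalization ended the Grm4 call (-0.35, adjusted p 0.118), as did subtraction of array medians (0.0926), the replicate number as a block (0.0732) and leaving out pool 1 (0.165), pool 2 (0.184) or tumour 2 (0.0965).

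GABA-A receptors are chloride channels usually built from alpha, beta and gamma or delta subunits. Of the alpha genes, Gabra4 stood at 5.19 and 5.52 in the tumours, against 6.81 and 6.82 in the pools (-1.46, SE 0.14, adjusted p 0.0052). Gabra3 stood at 10.00 on both tumour arrays and at 10.67 and 10.68 in the pools (-0.68, SE 0.09, adjusted p 0.0124). Gabra5, whose product is known for extrasynaptic receptors of the hippocampus, stood at 5.31 and 5.32 in the tumours, against 5.89 and 5.997 in the pools (-0.62, adjusted p 0.018). Gabra2 had the most negative fold change of the class without passing. It stood at 6.15 and 7.31 in the tumours and at 8.12 and 8.41 in the pools (-1.54, 95% interval -2.50 to -0.58, adjusted p 0.0561), and it passed in 6 of 15 other settings, among them without tumour 1 (-0.96, adjusted p 0.0299) and without tumour 2 (-2.12, adjusted p 0.00588). The cerebellar subunit gene Gabra6 was at 4.12 and 3.93 in the tumours and at 4.14 and 3.87 in the pools, below the lower quartile of all genes, where a fold change can be understated.

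Both measured beta subunit genes fell. Gabrb2 stood at 8.68 and 8.43 in the tumours, against 10.15 and 9.88 in the pools (-1.46, SE 0.15, adjusted p 0.00608). Its other 2 probe sets stood at -1.55 each. Gabrb1 stood at 4.95 and 5.14 in the tumours, against 6.14 and 6.41 in the pools (-1.23, SE 0.14, adjusted p 0.00745). The gamma, delta and epsilon genes did not pass: Gabrg1 stood at -0.31 (adjusted p 0.161), Gabrg3 at 0.29 (0.394), Gabrd at -0.04 (0.859) and Gabre at 0.33 (0.106). Gabre was at 5.54 and 5.64 in the tumours and at 5.19 and 5.33 in the pools, so both tumours lay above both pools. It passed after subtraction of array medians (0.49, adjusted p 0.0288). The Gabre mean over the arrays lay below the lower quartile of all genes. Calls for Gabra4, Gabrb1 and Gabrb2 held in every setting that tested them, and those for Gabra3 (adjusted p 0.079 and 0.0892) and Gabra5 (0.0797 and 0.126) were lost without pool 1 or pool 2.

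GABA-A receptor genes lie in clusters. By the order of coding genes in the RefSeq table, Gabrg1 and Gabra2 are neighbours on chromosome 5, and Gabra2 and Gabra4 are separated by 1 gene. Gabra4 and Gabrb1 follow each other with overlapping spans. In that order the log2 fold changes were -0.31, -1.54, -1.46 and -1.23. Since the Gabra4 and Gabrb1 spans overlap and the probe positions are not given in the sources used here, how their signals are kept apart was not tested. On chromosome 11 Gabra6 and Gabrb2 are neighbours, with 0.02 and -1.46. Gabrg3 and Gabra5 on chromosome 7 stood at 0.29 and -0.62, and Gabre and Gabra3 on chromosome X, with 1 gene between them, at 0.33 and -0.68. The differences between neighbours were not tested.

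Both GABA-B receptor genes fell. GABA-B receptors are obligate dimers in which the Gabbr1 product binds GABA and the Gabbr2 product couples to the G protein. Gabbr2 stood at 7.35 and 7.12 in the tumours, against 9.68 and 9.505 in the pools. It was 5.11-fold lower in late-onset cells (-2.35, SE 0.13, adjusted p 0.0019), the lowest adjusted p of the 35 genes. Gabbr1 stood at 9.27 and 9.30 in the tumours, against 10.51 and 10.81 in the pools (-1.37, SE 0.13, adjusted p 0.00562). Both calls held in each of the 15 other settings. Kctd16 and Kctd12 encode auxiliary proteins that bind GABA-B receptors, and both also fell, by 1.63 and 1.28 on the log2 scale (Kctd12 was chosen after its value was seen). Kctd16 stood at 6.09 and 5.88 in the tumours, against 7.68 and 7.55 in the pools (SE 0.12, adjusted p 0.0032), and Kctd12 at 8.36 and 8.58, against 9.76 and 9.73 (adjusted p 0.00476). A further member of that family on the list, Kctd8, also chosen after its value was seen, was not called (-0.21, adjusted p 0.29).

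**Figure D3:**
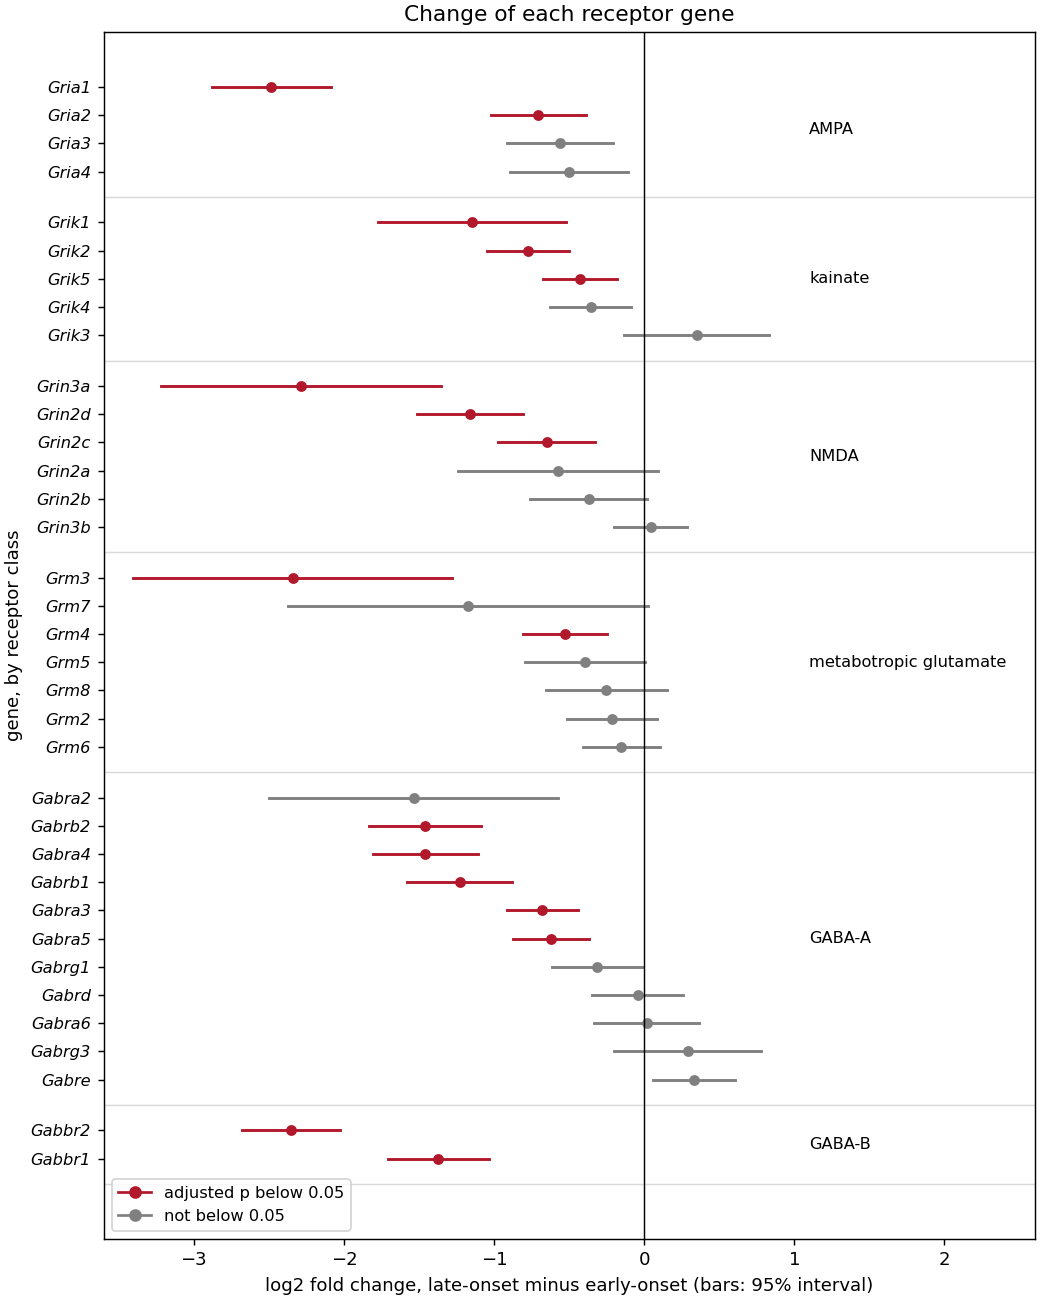
Log2 fold change of each measured receptor gene, late-onset minus early-onset, with its 95% interval from the limma fit, by receptor class. The 17 genes in red had an adjusted p below 0.05 and lie left of 0, and 13 of the 18 in grey also have a negative value.

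Genes that act with these receptors were described by 5 lists. Of 14 AMPA and kainate auxiliary subunit genes, 2 fell and 1 rose, at a median of -0.27. Both counts lie near the shares over all genes, of which 8.12% fell and 6.59% rose. Both tumours lay below both pools in 10 of the 14 (30.4% of all genes) and above them in 3 (28.5%). The largest fold change of this list was positive, that of Cacng5, which was not called (1.89, adjusted p 0.0625, chosen after its value was seen). Cacng5 stood at 9.23 and 10.66 in the tumours, against 8.37 and 7.74 in the pools. The TARP gene Cacng4, whose product carries AMPA receptors to the membrane, stood at 11.28 on both tumour arrays, against 11.99 and 11.88 in the pools (-0.66, adjusted p 0.0155). The kainate receptor partner gene Neto1 fell by 0.67. Cnih3, a cornichon gene whose product slows AMPA receptor closure, rose: it stood at 7.70 and 7.87 in the tumours, against 7.01 on both pool arrays (0.77, SE 0.11, adjusted p 0.0122). All 3 calls were lost without pool 1 (adjusted p 0.0752 to 0.138) and without pool 2 (0.08 to 0.154). The Neto1 call was also lost without tumour 2 (0.063), after subtraction of array medians (0.0606) and with the replicate number as a block (0.0589).

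Anchoring and trafficking genes had 7 of 21 lower and 0 higher, at a median of -0.26, against 8.12% of all genes lower and 6.59% higher. Dlg2, which encodes the scaffold PSD-93 of NMDA receptor complexes, stood at 6.74 and 6.96 in the tumours, against 9.47 and 9.79 in the pools (-2.78, SE 0.15, adjusted p 0.0019). Homer2, which ties metabotropic glutamate receptors to calcium stores, stood at -1.64 (adjusted p 0.0103), and the postsynaptic scaffold gene Shank1 at -1.30 (0.0157). With the mean of its 2 probe sets Homer2 stood at -1.125. These 3 calls and that of Kctd16 held in each of the 15 other settings that tested them. Gphn, which encodes the gephyrin scaffold of inhibitory synapses, was not called (-0.08, adjusted p 0.627, chosen after its value was seen).

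The counts of the 3 lists that follow stand beside 8.12% of all genes that fell and 6.59% that rose. Of 11 genes of glutamate uptake, vesicular loading and metabolism, 4 fell and 0 rose, at a median of -0.54. The 4 were the glial transporter genes Slc1a2 (-1.93) and Slc1a3 (-0.89), glutamine synthetase Glul (-1.02) and glutamate dehydrogenase Glud1 (-0.64). Slc1a2 stood at 9.39 and 9.69 in the tumours, against 11.39 and 11.55 in the pools (adjusted p 0.00303). Both transporter genes were also among the astrocyte markers. Of 8 genes of GABA synthesis, transport and breakdown, 4 fell and 0 rose, at a median of -0.57. The GABA transporter gene Slc6a11 stood at 6.82 and 6.64 in the tumours, against 8.98 and 9.25 in the pools (-2.38, SE 0.14, adjusted p 0.00198). The GABA transaminase gene Abat (-1.45), the next enzyme gene Aldh5a1 (-0.72) and the synthesis gene Gad1 (-0.71) fell with it. Of 5 delta and glycine receptor subunit genes 2 fell, Grid1 (-0.61, adjusted p 0.0228) and Glrb (-0.45, adjusted p 0.0475). Calls in these 3 lists that were lost without pool 2 were those of Slc1a3, Glud1, Aldh5a1, Gad1, Grid1 and Glrb (adjusted p 0.0836 to 0.252), and all of these except Slc1a3 were also lost without pool 1 (0.0712 to 0.135). Without tumour 1, Slc1a3 (0.0587), Glud1 (0.0742), Grid1 (0.0586) and Glrb (0.0864) lost theirs, and without tumour 2, Slc1a3 (0.0686), Grid1 (0.0525) and Glrb (0.122) did. With the replicate number as a block Slc1a3 stood at 0.0507 and Glrb at 0.0956, and after subtraction of array medians Glrb stood at -0.29 (adjusted p 0.114). The calls of Slc1a2, Glul, Slc6a11 and Abat held in each of the settings that tested them.

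**Figure D4:**
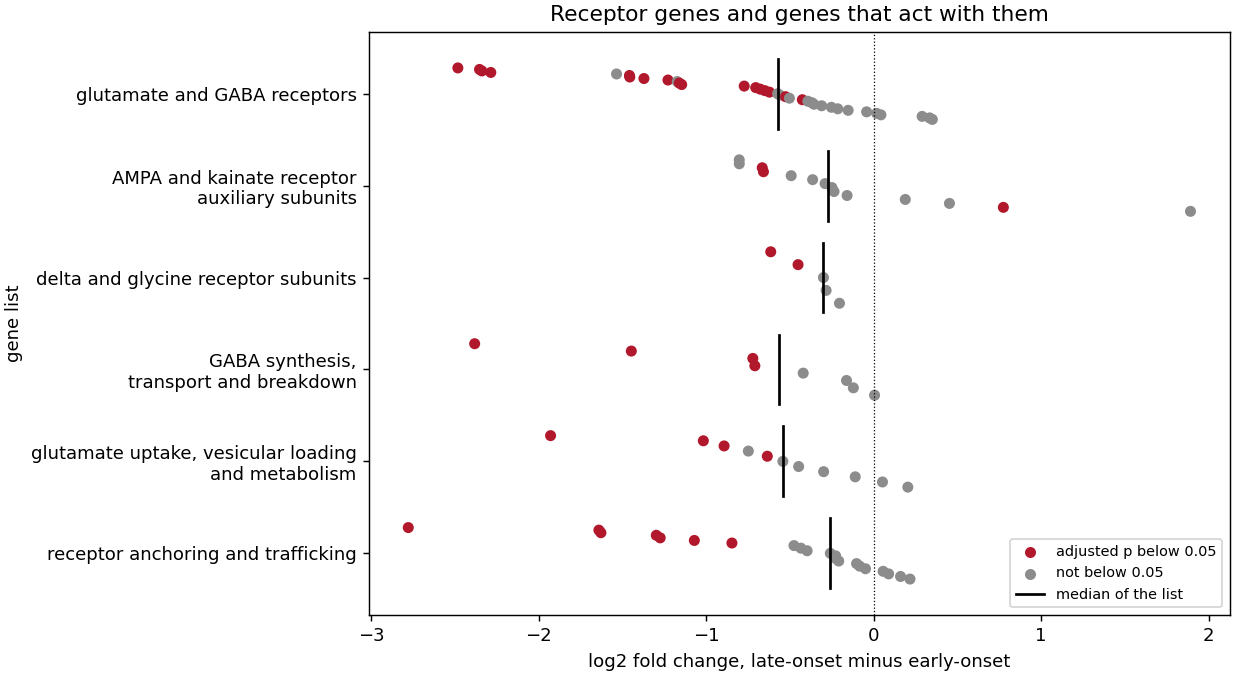
Log2 fold change of each measured gene, late-onset minus early-onset, for the receptor genes and 5 lists of genes that act with them. Red points had an adjusted p below 0.05, black bars mark list medians from -0.57 to -0.26, and Cnih3 is the red point right of 0.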

How the data were processed

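Each early-onset sample was a pool from 2 tumours and each late-onset sample came from 1 tumour. RNA was profiled on Affymetrix arrays, and the authors deposited log2 probe set values made with RMA and affy 3.4.2, per the submitters' processing notes, which give no parameters. RMA brings arrays to a common distribution, which hides any shift of the whole transcriptome, and folds of dim genes are understated. The number of arrays, 4, limits the precision.

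Of 34760 probe sets, 21640 had a single gene symbol in the platform annotation, 1321 several and 11799 none. Of the single-gene probe sets 21553 matched the RefSeq table by Entrez identifier. The 19937 genes, 1 probe set each, were tested by linear models with empirical Bayes moderation (limma 3.58.1 under R 4.3.3), with neither an intensity trend, robust moderation nor a filter on low values, and the procedure was checked on simulated arrays. The labels call the samples biological replicates. An exact permutation test of 2 against 2 samples cannot go below 0.333, so the p-values rest on the spread pooled over genes (2 residual and 3.27 prior degrees of freedom). Within groups the arrays correlated at 0.991 to 0.995, and between groups at 0.967 to 0.968.

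The members and lists were chosen with earlier results of these data known. All 36 members are named, with up to 4 called genes of each partner list and up to 2 of each marker list by absolute log2 fold change, and Pdgfra, Olig2 and Sox10. The alternatives, 15 in all, covered the variance model, scaling, dim genes, probe sets, array weights, the replicate block and each sample left out. Scaling alternatives used gene-level values.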

Additional observations from a re-analysis of the deposited data

How the results depend on the processing

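No receptor gene that fell changed direction in any of the 15 settings, and 6 of the 17 (Gria1, Gabra4, Gabrb1, Gabrb2, Gabbr1 and Gabbr2) kept their call in every setting that tested them. The receptor count that fell ran from 6 to 16 with a sample left out (10 calls were lost without pool 1 and 11 without pool 2) and from 12 to 18 in the others, where the 12 came from 17 receptor genes tested after genes below the median were left out. The list median ran from -0.70 to -0.41. Over all genes, 1313 rose and 1618 fell, 44.8% of calls higher. After subtraction of array medians 2839 rose and 1210 fell, 70.1% higher. With a sample left out 291 to 1212 rose and 559 to 1365 fell. The labels do not state that a shared replicate number pairs samples, and the differences between replicates of the 2 groups correlated at -0.04 over all genes and at 0.16 over the measured receptor genes. With the replicate block 744 rose and 1089 fell over all genes, and 14 receptor genes fell and 0 rose. Subtraction of array medians put 1 receptor gene (Gabre) and 3 partner genes higher, against 0 and 1 in the main fit. With genes below the median left out 2 partner genes were higher. Cnih3, the 1 of the main fit, was not tested in that setting. With a sample left out, 0 to 2 partner genes were higher and 10 to 17 lower (against 19), and 20 to 40 marker genes were lower (against 41), of which microglia and macrophage genes made up 17 to 19. Directions turned only for uncalled genes near 0: Grm6 stood at 0.0067 after subtraction of array medians. Gabra6 (0.02) ran from -0.12 without pool 2 to 0.15 without pool 1, and was -0.08 without tumour 1. Gabrd stood at 0.10 after quantile normalization, 0.12 after subtraction of array medians, 0.028 after cyclic loess and 0.038 without pool 1, and ran from -0.13 without tumour 2 to 0.045 without tumour 1. The causes were not tested. Of the 35 genes 18 lay below the median gene mean, and 7 of the 17 called genes were among them. Below the lower quartile of gene means (5.52) lay 4, and none of those 4 was called in the main fit. On both tumour arrays the called genes Gabrb1 (4.95 and 5.14) and Gabra5 (5.31 and 5.32) also stood under that value.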
